A study of Mus musculus with 29 samples.

Results

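The comparison set TdTomato-positive against EGFP-positive podocytes sorted from the same mice 4 days after injection of the immunotoxin LMB2. It holds 8 of the 29 one-colour arrays of the series, 4 of TdTomato podocytes and 4 of EGFP podocytes, chosen by day and cell marker in the sample titles. Each of the mice MC151, MC692, MC822 and MC823 gave 1 array of each population, so that every difference is taken within a mouse. All were male Pod-hCD25T/G mice on a C57BL/6J background, aged 8 weeks, and all had a heminephrectomy and then LMB2 at 25 ng per gram of body weight, so that EGFP podocytes come from operated and injected animals too. The rest of the series holds the same populations before injection (day 0) and at days 1 and 7, from other mice (4 TdTomato and 4 EGFP arrays at day 0, 4 and 3 at day 1, 2 and 4 at day 7). The labels name neither the promoter that drives hCD25 nor the means by which the colours are set. From what is known of the study, the TdTomato cells are those with human CD25 and the EGFP cells lack it. Only cells still in the glomeruli at day 4 could be sorted, and cells lost before then are not in the RNA.

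Podocytes are the epithelial cells that wrap the glomerular capillaries. Their foot processes are bridged by the slit diaphragm, the last layer of the filter, and mature podocytes have left the cell cycle. LMB2 is an immunotoxin: its antibody portion recognises human CD25, and its Pseudomonas exotoxin portion inactivates elongation factor 2 and so stops protein synthesis. Mouse cells without human CD25 do not bind it. TdTomato against EGFP within a mouse therefore sets cells that bind the toxin beside cells that share their glomeruli, surgery and injection.

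A level is the log2 signal of a gene's probe minus that of the 75th percentile over all spots on its array, so that 1 unit is a doubling. Errors of differences are standard errors (SE) of the limma fit, and adjusted p-values are Benjamini-Hochberg values over all 15622 genes tested. The spread behind them is pooled over the mice of all days, since 1 fit holds all 29 arrays. Values of single arrays are always given in the order MC151, MC692, MC822, MC823. Across genes the arrays correlated at 0.956 to 0.979 within TdTomato, at 0.972 to 0.983 within EGFP and at 0.896 to 0.905 between both arrays of a mouse. Both arrays of a mouse lay side by side on 1 slide, always TdTomato at position 5 and EGFP at position 6, so population and position cannot be told apart at day 4. The TdTomato array of MC823 stands apart: the 18 markers of the proximal tubule summed there to 246.3 times the array's 75th percentile, against 5.305 to 7.519 on the other TdTomato arrays and 2.877 to 10.83 on the EGFP arrays. Values without that array are given where leaving it out moves a result by over 1.5 times or turns its direction.

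The populations differed in most of the genes measured, and the difference was lopsided. Limma called 3971 genes (25.4%) higher and 7505 (48%) lower in TdTomato than in EGFP podocytes, 11476 (73.5%) in all. Genes said to rise or fall were higher or lower in TdTomato than in EGFP of the same day, which is no change over time. The genes that fell did so by a narrow margin: the central part of their differences lay between -1.04 and -0.62, only 118 of them (1.57%) were beyond -1.5, and none of the 15622 genes was lower by over 8-fold. The genes that rose reached much further, with 2154 (54.2%) beyond 1.5 and 314 genes higher by over 32-fold. Past 2-fold the counts were 2788 higher (17.8%) and 2159 lower (13.8%), and with normexp background correction they were 1401 and 1093. All 4 TdTomato arrays lay above all 4 EGFP arrays in 2825 genes (18.1%) and below them in 5159 (33%). Over all tested genes the median difference was -0.33, and over the 11481 genes well above background on all 8 arrays it was -0.54, with 19.1% of them higher and 61.3% lower. List medians below are set beside -0.33, but the median changed with the level in EGFP podocytes. The 3125 genes dimmest in EGFP podocytes (levels of -6.64 to -4.07) had a median of 1.005, with 47.7% higher and 4.9% lower. The 3125 brightest (3.18 to 9.70) had a median of -0.717, with 11.8% higher and 74.5% lower. The EGFP level that sorted these genes is also part of the difference. Sorting on it favours higher differences among the dimmest genes and lower ones among the brightest. A gene dim in EGFP podocytes could also pass the filter through arrays where it was high. How much of this shift comes from the sorting and the filter was not tested. Lists were not matched for brightness, and its part in their medians and shares was not tested. The sizes of dim genes depend on the background correction. With normexp, which adds 50 to every signal, 104 of the 183 genes named by rule had differences smaller by over 1.5-fold, all 104 in the same direction. A bound written "at least" below holds for the deposited signal alone, and normexp values are given beside the bounds where they were computed. These are relative levels, since each array is scaled to itself, and in bulk RNA fewer cells of a type and less RNA per cell cannot be told apart.

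At day 0 the same neighbouring layout of arrays gave 0 called genes of 15622 with limma (409 genes, 2.62%, at an unadjusted p under 0.05, and a smallest adjusted p of 0.187). The histogram of differences shows both days together.

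**Figure D1:**
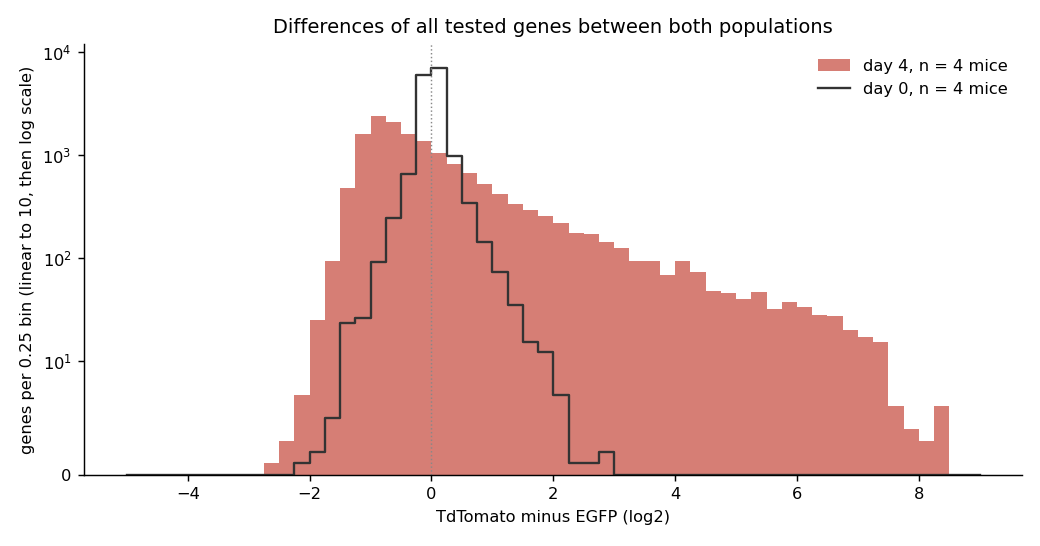
TdTomato minus EGFP difference of 15622 genes (x axis, log2) against the number of genes per bin (y axis, linear to 10 and logarithmic above), filled for day 4 and outlined for day 0, n = 4 mice each. At day 4 most genes sit below 0 in a narrow hump, and a long tail reaches 8.34 on the higher side, while day 0 is narrow and centred near 0.

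Podocyte identity genes were lower in TdTomato podocytes in most members of each list. Of 22 slit diaphragm genes 19 fell and 1 rose (median difference -0.97, against -0.33 over all genes); of 29 foot process genes 25 fell and 1 rose (median -1.01); of 15 podocyte transcription factors 11 fell and 2 rose (median -1.13). Nphs1, which encodes nephrin, the adhesion protein that spans the slit, stood at 6.25, 6.20, 6.23 and 6.41 in TdTomato podocytes, against 7.73, 7.35, 7.45 and 7.38 in EGFP podocytes. All 4 TdTomato arrays lay below all 4 EGFP arrays. The difference was -1.21 ± 0.10 (SE, n = 4 pairs, limma adjusted p = 1.4e-06), or 2.31-fold lower. Synpo, which encodes the actin-binding protein synaptopodin, read 6.39, 6.38, 6.75 and 6.86 in TdTomato and 7.81, 7.63, 7.73 and 7.89 in EGFP, again without overlap, and fell by 1.17 ± 0.10 on the log2 scale (adjusted p = 2.4e-06 by limma). The other Synpo probe past the filter fell less, at -0.445.

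Podxl, the surface sialoprotein podocalyxin that keeps foot processes apart, varied more between mice. It was at 5.57, 6.17, 5.25 and 6.43 in TdTomato, against 6.49, 7.31, 6.64 and 7.20 in EGFP, and the lowest EGFP value was just above the highest TdTomato value. The difference was -1.05 ± 0.20 (limma adjusted p = 0.0005). Wt1, the transcription factor that maintains the podocyte programme, averaged 7.09 ± 0.17 in TdTomato and 8.05 ± 0.26 in EGFP (SD, n = 4 each), 1.94-fold lower. The plot of levels by array shows these genes beside genes of the other groups.

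Among the transcription factors Foxc2 averaged 4.67 ± 0.33 in TdTomato and 6.05 ± 0.21 in EGFP (SD, n = 4 each), a difference of -1.38 ± 0.15, and Tcf21 was at -1.23. The exceptions were Zhx2, a repressor, at 1.90 ± 0.19 and Klf15, a zinc finger factor that responds to glucocorticoids, at 1.01 ± 0.40 (adjusted p = 0.041 by limma). On the foot process list the 1 gene that rose was Tmem63c, a membrane channel gene. Its TdTomato arrays read 0.14, 0.06, -0.14 and -0.60, while no EGFP array was well above background, which puts it at least 18.8-fold higher (a log2 difference of 2.03 with normexp). Trpc6, a calcium channel of the slit diaphragm, was well above background on 0 TdTomato and 2 EGFP arrays, and its difference of -1.99 ± 0.38 rests on dim spots.

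**Figure D2:**
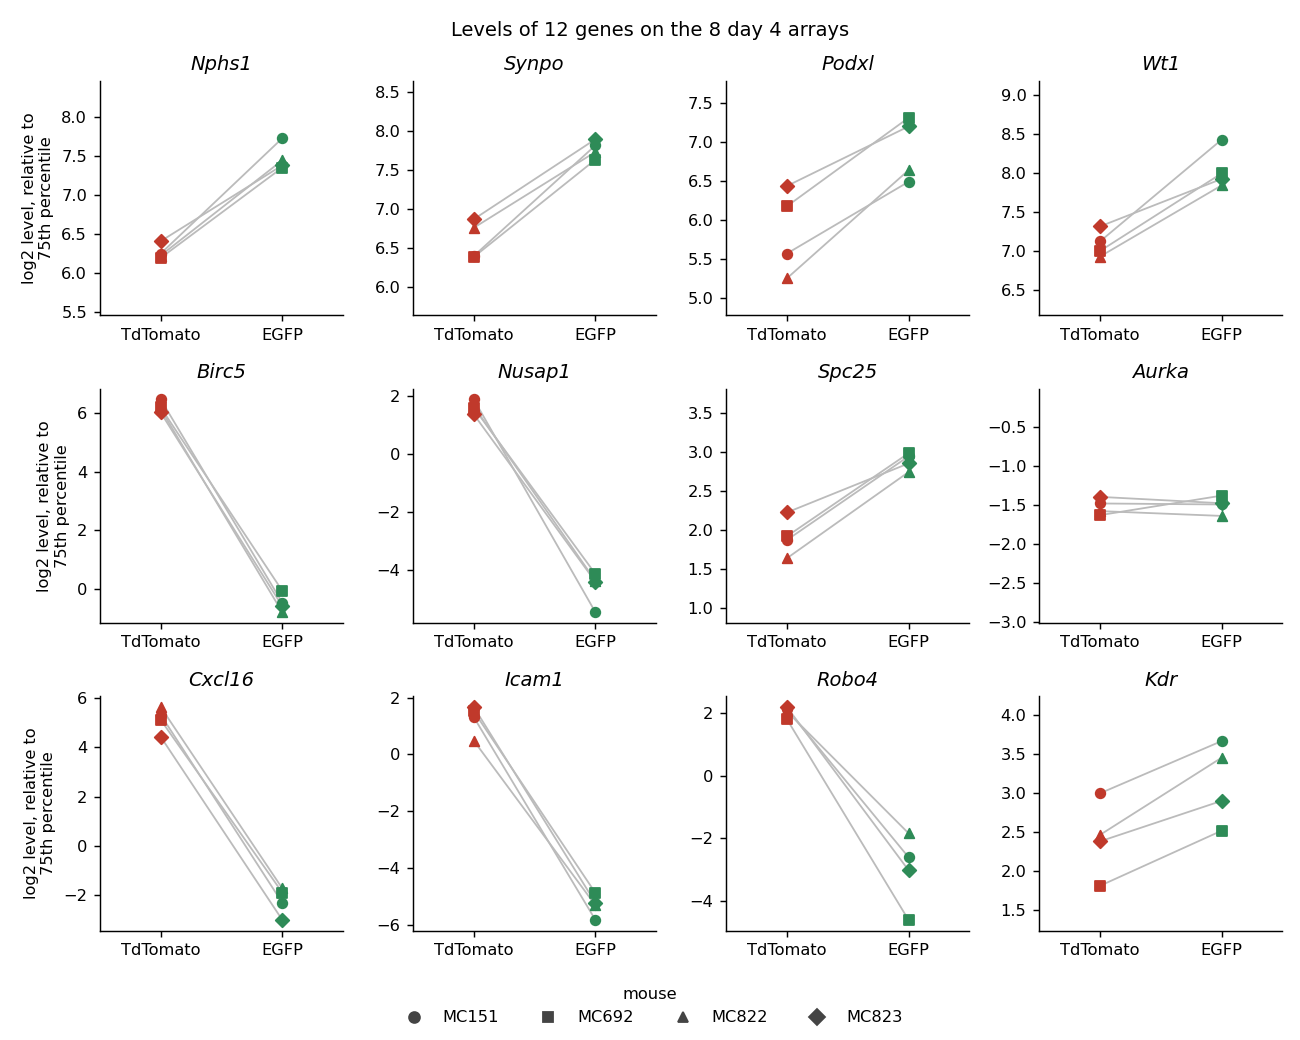
Level of 12 genes (y axis, log2 units above or below the array's 75th percentile, scale set per panel) in TdTomato and EGFP podocytes at day 4, with 1 symbol per mouse and a line joining both arrays of a mouse. Nphs1, Synpo, Podxl, Wt1, Spc25 and Kdr were lower in TdTomato in every mouse, Birc5, Nusap1, Cxcl16, Icam1 and Robo4 higher in every mouse, and Aurka differed by -0.02 ± 0.11 (SE).

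The basement membrane genes were split. Of 18, 10 fell (55.6%, against 48% of all genes) and 3 rose (16.7%, against 25.4%), with a median of -0.58 (-0.33 over all genes). Col4a4, a chain of the mature collagen IV network that podocytes make, averaged 4.84 ± 0.28 in TdTomato and 6.06 ± 0.15 in EGFP (SD, n = 4 each), a difference of -1.22 ± 0.08, and Col4a3 (-1.10) and Col4a5 (-0.93) fell with it. Lama5, a laminin chain of the same membrane, went the other way: it stood at 7.76, 7.55, 7.58 and 7.43 in TdTomato, against 6.49, 6.11, 5.66 and 5.95 in EGFP, or 2.88-fold higher (1.53 ± 0.16, limma adjusted p = 7e-06). Fn1, the fibronectin gene, was 2.31 ± 0.65 higher, with 1 of 4 EGFP arrays well above background, and with normexp it was at 0.52 and no longer called (limma adjusted p = 0.0571). The brightest probe of Hspg2, the perlecan gene, rose by 1.47 ± 0.26, but its other probe was at -0.53, so its direction depends on the probe.

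Of 22 injury markers 7 rose (31.8%) and 10 fell (45.5%), near the shares of all genes (25.4% and 48%). Their median was -0.14, and the members did not move as one. The median rests on single mice: it was -0.60 without MC823, with 6 higher and 12 lower, and 0.002 without MC822. Cd44, a hyaluronan receptor of activated glomerular epithelium, stood at 0.56, 0.52, 1.11 and 0.22 in TdTomato, against -2.63, -2.99, -2.60 and -2.23 in EGFP, 9.26-fold higher (3.21 ± 0.21, adjusted p = 3e-07 by limma). Mmp9, a gelatinase gene, was well above background on all 4 TdTomato arrays and on no EGFP array (at least 4.27-fold, and a log2 difference of 0.78 with normexp). Des, the intermediate filament desmin, often used to mark injured podocytes, was lower in TdTomato (-1.91, -1.34, -1.45 and -0.82) than in EGFP (-0.91, -0.61, -0.64 and -0.03). The arrays overlap, yet every mouse showed the same direction, and the difference was -0.83 ± 0.14 (limma adjusted p = 0.00021). At day 0, in other mice, Des averaged -1.52 in TdTomato and -1.63 in EGFP, against -1.38 and -0.55 at day 4. The EGFP mean was thus the one that stood further from day 0. Vim (-0.82) and Nes (-1.03), which encode the filament proteins vimentin and nestin, were also lower in TdTomato than in EGFP.

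Genes of mitosis held large rises, but only part of the list took part. Of 32 tested 14 rose, 5 fell and 13 did not pass (median 0.59). With normexp correction 13 rose and 10 fell, and with quantile normalization 14 and 9. Birc5 encodes survivin, a subunit of the chromosomal passenger complex that also restrains caspases. Its levels were 6.45, 6.18, 6.13 and 6.01 in TdTomato podocytes, against -0.46, -0.06, -0.79 and -0.58 in EGFP podocytes. Every TdTomato array was far above every EGFP array, and the spread inside each population was below 1 unit. The difference of 6.66 ± 0.20 (SE, n = 4 pairs, limma adjusted p = 1.8e-09) is 101-fold, and the 3 Birc5 probes past the filter gave 6.29 to 7.46.

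Nusap1, a spindle microtubule protein, read 1.88, 1.59, 1.64 and 1.37 in TdTomato, against -5.45, -4.13, -4.37 and -4.40 in EGFP, where only 1 array was well above background. It rose by 6.21 ± 0.36 (adjusted p = 1.5e-07 by limma). Bub1b, a kinase-like protein of the spindle checkpoint, was well above background on all 8 arrays and averaged 2.29 ± 0.64 in TdTomato and -3.08 ± 0.49 in EGFP (SD, n = 4 each), 41.4-fold higher. Also higher were the cytokinesis genes Kif20a (4.91) and Prc1 (4.35), the cyclin genes Ccna2 (4.40), Ccnb2 (2.42) and Ccnb1 (1.87), the ubiquitin ligase partner Ube2c (4.09) and the kinase gene Plk1 (1.95).

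Other genes of the same phase did not follow. Aurka, the kinase of the spindle poles, stood at -1.48, -1.63, -1.58 and -1.39 in TdTomato and at -1.49, -1.38, -1.64 and -1.48 in EGFP. These values overlap, with a difference of -0.02 ± 0.11 (limma adjusted p = 0.86). Mki67, which encodes the proliferation marker Ki-67, was at 0.52 ± 0.24 and missed the threshold (adjusted p = 0.071 by limma), and Cdk1, the mitotic kinase, was well above background on 0 TdTomato arrays and 1 EGFP array. Spc25, a kinetochore subunit, was lower in TdTomato (1.87, 1.92, 1.64 and 2.23) than in EGFP (2.94, 2.98, 2.74 and 2.85), a difference of -0.97 ± 0.18. Incenp, the scaffold of the complex that holds survivin, fell by 1.05 ± 0.18 on the log2 scale (limma adjusted p = 0.00024). Foxm1, a transcription factor of mitotic genes, was lower by 0.92 ± 0.32, and the other called decreases, Kif11 and Ckap2, rest on dim spots.

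Promoters of mitotic genes often carry a CCAAT box and a cell cycle homology region, so the letters CCAAT and TTTGAA were searched on both strands in RefSeq windows (GRCm38.p6) running from 250 bases before to 50 after each gene's start. Of all 32851 windows 37.4% held CCAAT and 17.9% held TTTGAA. Of the 14 mitosis genes that rose 11 had a window, and 9 of these held CCAAT and 7 held TTTGAA. All 3 windows among the genes that fell held both, as did 9 of 13 among those that did not pass, so these letters do not set the genes that rose apart within the list. The window of Birc5, which holds neither, and that of Spc25, which fell and holds both, are shown as this contrast (matches in capitals, 5′ to 3′). They were chosen after the matches were seen.
Birc5 (chr11:117848987-117849286, plus strand): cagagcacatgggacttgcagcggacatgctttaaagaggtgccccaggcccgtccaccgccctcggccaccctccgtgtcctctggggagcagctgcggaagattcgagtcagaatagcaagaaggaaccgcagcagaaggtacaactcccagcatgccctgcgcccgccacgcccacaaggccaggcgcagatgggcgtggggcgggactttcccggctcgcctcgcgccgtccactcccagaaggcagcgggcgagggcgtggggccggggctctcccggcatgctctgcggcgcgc
Spc25 (chr2:69206164-69206463, minus strand): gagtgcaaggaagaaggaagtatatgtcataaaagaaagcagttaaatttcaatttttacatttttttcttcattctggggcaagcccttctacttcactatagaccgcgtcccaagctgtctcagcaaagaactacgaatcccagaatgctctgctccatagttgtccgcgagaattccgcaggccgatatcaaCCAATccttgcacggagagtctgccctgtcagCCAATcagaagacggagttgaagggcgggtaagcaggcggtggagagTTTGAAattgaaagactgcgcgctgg

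DNA replication genes went both ways, 10 higher (32.3%, against 25.4% of all genes) and 12 lower (38.7%, against 48%) of 31. Their median was -0.05, and -0.17 without MC823. Rrm2, the regulated subunit of ribonucleotide reductase, stood at 0.52, -0.79, 0.45 and -0.25 in TdTomato and at -3.51, -4.59, -4.08 and -4.43 in EGFP, 17.6-fold higher (4.14 ± 0.21, adjusted p = 5e-08 by limma). Tk1, a thymidine kinase, was well above background on every TdTomato array and on no EGFP array (at least 9.48-fold higher, and a log2 difference of 1.31 with normexp). Mcm10, a factor of replication initiation, rose by 2.53 ± 0.16 and Uhrf1, which keeps DNA methylation through replication, by 3.01 ± 0.15. Pcna, the sliding clamp of the polymerases, moved down: it averaged 3.18 ± 0.17 in TdTomato and 3.96 ± 0.04 in EGFP (SD, n = 4 each). E2f1, a transcription factor of the G1 to S transition, was 2.84-fold lower (limma adjusted p = 3.3e-06).

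Cdkn1a, the p21 inhibitor of cyclin-dependent kinases and a classic p53 target, rose beside these cell cycle genes. Its levels were 3.28, 2.89, 3.65 and 3.13 in TdTomato, against -1.59, -1.35, -1.04 and 0.21 in EGFP. No arrays overlapped, and the difference was 4.18 ± 0.32 (limma adjusted p = 9.1e-07), 18.1-fold. The p53 target list as a whole had 11 genes higher (40.7%, against 25.4% of all genes) and 12 lower (44.4%, against 48%) of 27. Its median was -0.05, and -0.13 without MC823. The death receptor genes Tnfrsf10b (3.27 ± 0.21) and Fas (2.93 ± 0.23) and the stress cytokine Gdf15 (2.73) rose, while Btg2 (-1.33 ± 0.19), Gadd45a (-1.32 ± 0.08) and Bbc3 (-1.22 ± 0.14), which encodes the death effector PUMA, fell. Cdkn1b, the p27 inhibitor that quiescent podocytes carry, averaged 2.07 ± 0.32 in TdTomato and 3.27 ± 0.19 in EGFP (SD, n = 4 each). Of 40 genes of regulated cell death 11 rose (27.5%, against 25.4% of all genes) and 23 fell (57.5%, against 48%), with a median of -0.51. Those that rose included Birc3, an inhibitor of apoptosis that NF-kB induces, at 3.37, and Nlrp3, an inflammasome sensor with no EGFP array well above background (at least 3.02-fold), and those that fell included the survival genes Mcl1 (-1.06) and Bcl2l1 (-0.54).

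NF-kB target genes and chemokines had a median difference of 0.85. It depends on the mice and the processing, at 1.46 without MC692, 1.28 without MC151 and 0.49 with normexp, and by mouse it ran from 0.81 to 2.27. NF-kB is held in the cytoplasm by inhibitors and, once freed, induces chemokines, adhesion molecules and its own feedback genes. Of 32 members 17 rose and 5 fell. Cxcl16, a membrane-bound chemokine, averaged 5.12 ± 0.51 in TdTomato and -2.23 ± 0.57 in EGFP (SD, n = 4 each), and all 8 arrays were well above background. The gap of 7.36 ± 0.29 (SE, n = 4 pairs, limma adjusted p = 9.6e-09) is 164-fold. Icam1, an adhesion molecule for leukocytes, was at 1.31, 1.51, 0.48 and 1.67 in TdTomato, while no EGFP array was well above background, which makes it at least 52.9-fold higher (a log2 difference of 3.22 with normexp).

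The chemokine Ccl5 read 3.44, 2.94, 2.98 and 2.72 in TdTomato and -2.18, -4.43, -1.92 and -1.13 in EGFP, where it varied most between mice (5.44 ± 0.55). Bcl3, a nuclear partner of the NF-kB subunits p50 and p52, averaged 5.28 ± 0.28 in TdTomato and 0.88 ± 0.64 in EGFP (SD, n = 4 each), 21.1-fold higher. Cxcl10 and Cxcl1, attractants of T cells and neutrophils, were both at 3.73, the subunit genes Nfkb2 and Relb were at 3.13 and 2.80, and Cxcl2, Tnf and Il6 were well above background on all 4 TdTomato arrays and on no EGFP array (at least 4.11-fold, 3.91-fold and 3.57-fold). The feedback inhibitor Nfkbia did not differ past the test: it stood at 7.71, 7.53, 7.99 and 7.19 in TdTomato and at 7.82, 7.52, 8.11 and 7.35 in EGFP, a difference of -0.10 ± 0.21 (adjusted p = 0.70 by limma). Rela was at -0.11 and Nfkb1 at 0.53, neither called. Il34, a ligand of the macrophage receptor CSF1R, fell by 1.31 ± 0.10 on the log2 scale.

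A kappa B consensus was searched in the same promoter windows, on both strands. It occurred in 4.51% of all windows, in 7 of 12 windows of the list's genes that rose (Nfkb2, Bcl3, Cxcl1, Cxcl2, Cxcl10, Csf1 and Il6), in 1 of 4 of those that fell and in 3 of 7 of those that did not pass. The windows of Cxcl2 and Bcl3 show the match in capitals, 5′ to 3′, and were picked after the search as examples of a chemokine and a regulator that rose. A match of letters is a description and no measure of binding.
Cxcl2 (chr5:90903649-90903948, plus strand): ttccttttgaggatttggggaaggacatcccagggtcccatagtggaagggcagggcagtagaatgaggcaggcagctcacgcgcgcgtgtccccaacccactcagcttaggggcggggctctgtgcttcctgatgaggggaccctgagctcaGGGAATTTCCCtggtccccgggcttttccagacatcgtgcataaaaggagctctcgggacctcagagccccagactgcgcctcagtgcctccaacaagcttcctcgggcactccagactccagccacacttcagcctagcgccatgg
Bcl3 (chr7:19822706-19823005, minus strand): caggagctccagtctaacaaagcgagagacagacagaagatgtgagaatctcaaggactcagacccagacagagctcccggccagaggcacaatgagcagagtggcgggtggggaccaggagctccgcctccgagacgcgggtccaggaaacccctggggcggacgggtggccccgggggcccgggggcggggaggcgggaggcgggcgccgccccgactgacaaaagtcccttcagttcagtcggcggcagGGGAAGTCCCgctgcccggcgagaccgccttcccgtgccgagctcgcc

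Interferon-stimulated genes were mixed, with 13 higher and 8 lower of 28 (median 0.40). Isg15, a ubiquitin-like modifier, was at 5.63, 5.10, 5.73 and 4.86 in TdTomato, against 1.31, 0.70, 1.60 and 0.75 in EGFP (4.24 ± 0.16, 18.9-fold, limma adjusted p = 8.3e-09). Irf1 (1.54) and Irf9 (1.23), transcription factors of the response, rose as well, whereas Stat2 (-0.73), a signal carrier, fell. Of 22 complement genes 9 rose and 5 fell (median 0.72), and with normexp correction 6 did each way (median 0.09). C3, the central component, averaged 3.31 ± 0.59 in TdTomato and 0.61 ± 0.67 in EGFP (SD, n = 4 each), 6.49-fold higher. The genes that fell hold regulators that shield cells from complement: Cd55 (-1.21), Cd59a (-1.24) and Serping1, the C1 inhibitor (-1.45 ± 0.13). MHC class I genes had 4 higher (25%) and 8 lower (50%) of 16, near the shares of all genes (25.4% and 48%). Their median was -0.30, and -0.19 without MC151. B2m, the light chain, led the rises at 1.72.

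Of 30 immediate early genes 17 fell (56.7%, against 48% of all genes) and 6 rose (20%, against 25.4%), shares near those of all genes (median -0.64). Egr4, a zinc finger factor, stood at 2.93, 2.56, 2.95 and 1.81 in TdTomato and at -3.02, -3.09, -1.94 and -4.49 in EGFP, a difference of 5.70 ± 0.47 (adjusted p = 1.6e-06 by limma). Maff, a small Maf factor, averaged 7.60 ± 0.49 in TdTomato and 3.87 ± 0.27 in EGFP (SD, n = 4 each), and Myc, a driver of growth and ribosome production, rose by 3.82 ± 0.25. Fos averaged 6.82 ± 0.23 in TdTomato and 7.71 ± 0.28 in EGFP and fell by 0.89 ± 0.09 on the log2 scale, with Fosb (-1.26) and Junb (-1.23) below it. Egr1 was at 0.10 ± 0.13 (limma adjusted p = 0.52).

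Chaperones of the endoplasmic reticulum were lower almost throughout: of 20 genes of the unfolded protein response 19 fell and 0 rose (median -0.99). Ern1, the stress sensor IRE1, was the 1 gene not called, at -0.35. Hspa5, the chaperone BiP that this response induces, stood at 6.81, 6.39, 6.74 and 6.88 in TdTomato, against 7.79, 7.17, 7.48 and 7.55 in EGFP. The highest TdTomato array lay below the lowest EGFP array, and the difference was -0.79 ± 0.09 (limma adjusted p = 1.1e-05). Pdia4, a protein disulfide isomerase, was 3.04-fold lower (-1.61 ± 0.26), and Xbp1, the transcription factor of the response, 2.18-fold (-1.12 ± 0.12). Heat shock genes had 11 lower and 1 higher of 17 (median -0.77). The exception was Hspa9, the mitochondrial chaperone mortalin, which averaged 5.31 ± 0.15 in TdTomato and 4.08 ± 0.05 in EGFP (SD, n = 4 each), 2.35-fold higher.

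The integrated stress response, which slows initiation and favours the transcription factor ATF4, had 7 genes higher and 17 lower of 32 (median -0.50, and -0.29 without MC151). These shares, 21.9% and 53.1%, are near those of all genes (25.4% and 48%). Atf4 itself averaged 8.52 ± 0.23 in TdTomato and 8.18 ± 0.27 in EGFP, a difference of 0.34 ± 0.12 with overlapping arrays (adjusted p = 0.025 by limma). Fgf21, a hormone gene induced by this response in other tissues, was well above background on all 4 TdTomato and no EGFP arrays. It was at least 6.56-fold higher, with a log2 difference of 1.105 with normexp. Mthfd2, a mitochondrial folate enzyme, rose by 2.03. Ddit3, the CHOP gene, did not pass: it stood at 3.29, 3.03, 3.33 and 2.86 in TdTomato and at 3.37, 2.36, 3.53 and 3.08 in EGFP (0.04 ± 0.26, limma adjusted p = 0.89). The tRNA ligase genes Gars (-0.81), Wars (-0.93) and Aars (-0.51) fell.

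The toxin's own target and the genes that make it sensitive were also measured. Eef2, elongation factor 2, stood at 6.61, 6.28, 6.72 and 6.33 in TdTomato and at 6.63, 6.02, 6.43 and 6.61 in EGFP, overlapping values with a difference of 0.07 ± 0.13 (adjusted p = 0.65 by limma). Of 16 genes of elongation and of diphthamide, the modified residue that the toxin attacks, 11 fell (68.75%, against 48% of all genes) and 0 rose (against 25.4%). Their median of -0.41 was near that of all genes (-0.33). Genes well above background on all 8 arrays had a median of -0.54, with 61.3% lower. Among the 11 list members that fell were Dph6 (-0.97), a diphthamide enzyme, and Furin (-0.96), the protease that cleaves such toxins inside cells.

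Genes of ribosome production rose more often than those of ribosomal proteins. Of 40 nucleolar genes of ribosome biogenesis 21 rose and 9 fell (median 0.44). Gnl3, the nucleolar GTPase nucleostemin, was at 4.74, 4.46, 3.96 and 3.91 in TdTomato, against 0.59, 0.68, 0.65 and 0.57 in EGFP, where the mice hardly varied. It was 12.5-fold higher (3.65 ± 0.15, limma adjusted p = 1.2e-08). Nop58 and Npm1, a snoRNP core protein and nucleophosmin, rose by 2.16 ± 0.12 and 1.53 ± 0.17, and Bop1, an assembly factor of the large subunit, fell by 1.01 ± 0.11. Of 75 cytosolic ribosomal protein genes 4 rose (5.3%, against 25.4% of all genes) and 37 fell (49.3%, against 48%). Their median of -0.21 was above that of all genes (-0.33). The counts depend on the scaling, with 17 higher and 23 lower under quantile normalization. They depend also on the pairing, with 2 and 9 when the mouse was not a replicate block. Rpl18 at 1.38 ± 0.12 and Rps24 at -1.08 ± 0.16 were the ends of that list.

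Of 55 subunits of the respiratory chain 45 fell and 3 rose (Sdhd, Ndufv2 and Uqcrc2), with a median of -0.50. Cholesterol synthesis had 6 higher (24%) and 12 lower (48%) of 25, the shares found among all genes (25.4% and 48%; median -0.39). The probes of Fdft1 differed, from -0.07 to 1.75. Oxidative stress genes had 3 higher (10.7%) and 15 lower (53.6%) of 28 (median -0.46), with the lower share near that of all genes. Hmox1, heme oxygenase, was among the 3, at 4.29, 3.84, 4.02 and 3.63 in TdTomato, against 2.76, 1.23, 2.60 and 2.32 in EGFP (1.71 ± 0.20, limma adjusted p = 1.7e-05). Iron genes had 3 higher (18.75%) and 7 lower (43.75%) of 16, near the shares of all genes. Their median was -0.32, and -0.59 without MC151. Hamp, the hepcidin gene, was well above background on TdTomato arrays alone (at least 9.67-fold, and a log2 difference of 1.39 with normexp).

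Signals to neighbouring cells held some of the widest gaps. Of 29 growth factors and vascular signals 14 rose and 8 fell (median 0.28; 11, 8 and -0.02 without MC823; 13, 8 and 0.47 without MC692; 12, 12 and -0.07 with normexp). Nrg1, the ErbB ligand neuregulin, stood at 3.63, 3.95, 3.60 and 3.10 in TdTomato, against -3.67, -3.03, -4.08 and -4.69 in EGFP, where 1 of 4 arrays was well above background (7.44 ± 0.39, adjusted p = 5.7e-08 by limma). Edn1, the vasoconstrictor endothelin, averaged 3.33 ± 0.45 in TdTomato and -3.16 ± 0.48 in EGFP (SD, n = 4 each), 89.8-fold higher. Egfr (4.22 ± 0.43), its ligand gene Hbegf (2.82 ± 0.19) and Pgf, placental growth factor (4.47 ± 0.43), rose too. Vegfa, the factor by which podocytes maintain the capillary endothelium, was at 6.62, 6.65, 6.83 and 6.92 in TdTomato, against 7.85, 7.98, 8.09 and 8.17 in EGFP, 2.41-fold lower without overlap (-1.27 ± 0.12, limma adjusted p = 3.4e-06).

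Among 19 Eph receptors and ephrins 7 rose (36.8%, against 25.4% of all genes) and 8 fell (42.1%, against 48%). Their median was 0.19, and -0.04 without MC822. Epha8, a receptor known from the developing nervous system, read 8.65, 8.01, 7.35 and 6.92 in TdTomato and 0.82, 1.29, -0.94 and -0.94 in EGFP, 204-fold higher (7.68 ± 0.35, adjusted p = 2.1e-08 by limma). Epha5 and Ephb3 fell, at -1.40 ± 0.13 and -1.36 ± 0.14. TGF-beta and activin genes had 9 higher (36%) and 10 lower (40%) of 25, against 25.4% and 48% of all genes (median 0.38). Smad4, the shared signal carrier, averaged 7.25 ± 0.47 in TdTomato and 3.63 ± 0.16 in EGFP (SD, n = 4 each), 12.3-fold higher, and Tgfb2 rose by 3.72 ± 0.33, while the receptor genes Tgfbr2 (-1.07) and Tgfbr1 (-0.56) fell.

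Matrix genes of the interstitial kind were higher in 8 (25%) and lower in 16 (50%) of 32, close to the shares of all genes (25.4% and 48%; median -0.58). Col22a1, a collagen of tissue junctions, stood at 5.40, 4.88, 4.70 and 4.32 in TdTomato, against -2.26, -1.96, -2.95 and -3.08 in EGFP, 167-fold higher (7.39 ± 0.32, limma adjusted p = 1.4e-08). Thbs4, a thrombospondin, averaged 7.62 ± 0.48 in TdTomato and 1.36 ± 0.18 in EGFP (SD, n = 4 each), 76.7-fold higher. Col1a2, a chain of fibrillar collagen I, was 2.74-fold lower (-1.46 ± 0.16). Contractile and focal adhesion genes had 8 higher (25.8%) and 17 lower (54.8%) of 31 (median -0.40). Cyclin D and CDK inhibitor genes had 3 higher (21.4%) and 7 lower (50%) of 14 (median -0.23). The shares of both lists are near those of all genes. The plot of all lists gives each median with its spread over mice.

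**Figure D3:**
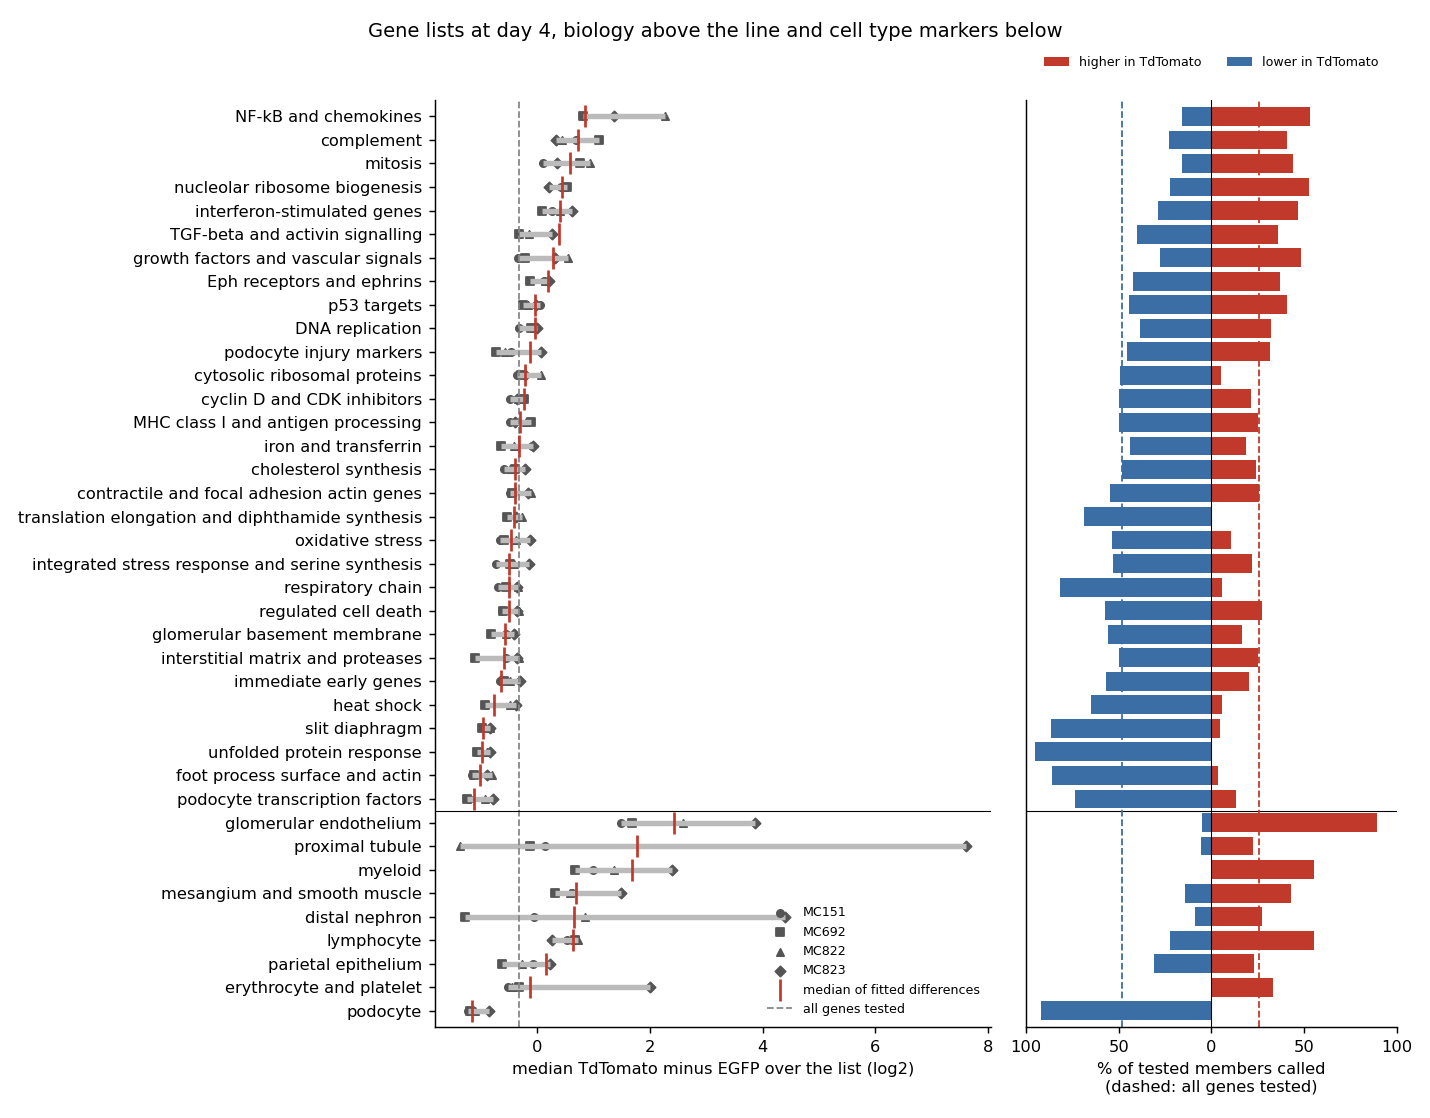
Left: median TdTomato minus EGFP difference over the members of each list (x axis, log2), with grey symbols for the 4 mice, a grey bar for their range, a red tick for the median of the fitted differences and a dashed line for all genes. Right: percent of tested members called higher (to the right of 0) or lower (to the left) by limma, with dashed lines for all genes. NF-kB and chemokine genes stand at 0.85, podocyte transcription factors at -1.13, and the proximal tubule markers range over mice from -1.37 to 7.61.

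Many genes were measured in TdTomato podocytes alone. There were 698 genes well above background on all 4 TdTomato arrays and on 0 EGFP arrays, and 4 with the reverse pattern, against 0 and 1 at day 0. TdTomato arrays also had more spots well above background in every mouse (52.7% to 65.5%, against 48.4% to 54.1% on EGFP arrays), and the part of this in the count was not tested. Of the 698, 428 were well above background on no day 0 array, 240 on no TdTomato array of day 1 and 305 on both TdTomato arrays of day 7. Fitted differences against dim EGFP spots have no reliable order. Spink2, a serine protease inhibitor of the testis, stood at 3.08, 2.12, 2.52 and 1.85 in TdTomato, with no EGFP array well above background, and was at least 117-fold higher (8.34 ± 0.21, limma adjusted p = 6.7e-10), against a log2 difference of 4.23 with normexp.

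Il31, an itch cytokine of T cells, was at 8.32 ± 0.34 (4.55 with normexp) with 1 of 4 EGFP arrays well above background. Prl7b1 and Prl2a1, prolactin family genes of the placenta, were at least 72.5-fold higher (a log2 difference of 3.87 with normexp) and at 8.28 ± 0.19. Prl2a1 was well above background on 3 EGFP arrays. Gstt4, a glutathione transferase gene, was at least 143-fold higher (a log2 difference of 4.475 with normexp). Elf5, a transcription factor of epithelia and trophoblast, was at 8.26 ± 0.32, Tmem151b, a membrane protein gene, at 8.21 ± 0.34 and Gli1, a transcription factor and target of hedgehog signalling, at 8.05 ± 0.43, each with 1 EGFP array well above background.

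Among genes well above background on all 8 arrays the leading rises were those of Tmprss9 (7.68 ± 0.28) and Epha8, followed by Ucp1, Aloxe3, Col22a1 and Cxcl16. Ucp1, the uncoupling protein of brown fat, stood at 4.43, 3.87, 4.24 and 3.29 in TdTomato, against -3.48, -3.17, -3.78 and -3.90 in EGFP, 186-fold higher (7.54 ± 0.27, adjusted p = 5.2e-09 by limma). Aloxe3, a lipoxygenase of the epidermis, was 178-fold higher. The differences downward were far smaller. Cldn17, a claudin of tight junctions, stood at -5.90, -3.74, -6.07 and -5.11 in TdTomato, of which 1 array was well above background, against -3.36, -2.93, -3.61 and -1.67 in EGFP (-2.31 ± 0.34, limma adjusted p = 8.7e-05). Dlx4, a homeobox gene, and Myl7, the atrial myosin light chain, led the differences downward among genes well above background on all arrays, at -1.96 ± 0.21 and -1.93 ± 0.20. Dlx4 was at -1.41 at day 0 as well, and its change from day 0 was not called (-0.56, adjusted p = 0.12 by limma). Its level was higher at day 4 than at day 0 in both populations (TdTomato -3.22 against -4.52, EGFP -1.25 against -3.11).

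The labelled cell type was checked against markers, and markers of other cells of the sort were followed for their part in the differences. Podocyte markers were present on all arrays: 11 or 12 of 12 were well above background on each, and they summed to 1375 to 1829 times the array's 75th percentile in TdTomato, against 2305 to 3273 in EGFP. Of these 12 markers 11 fell and 0 rose (median -1.16). The marker plot gives the sums for each array.

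**Figure D4:**
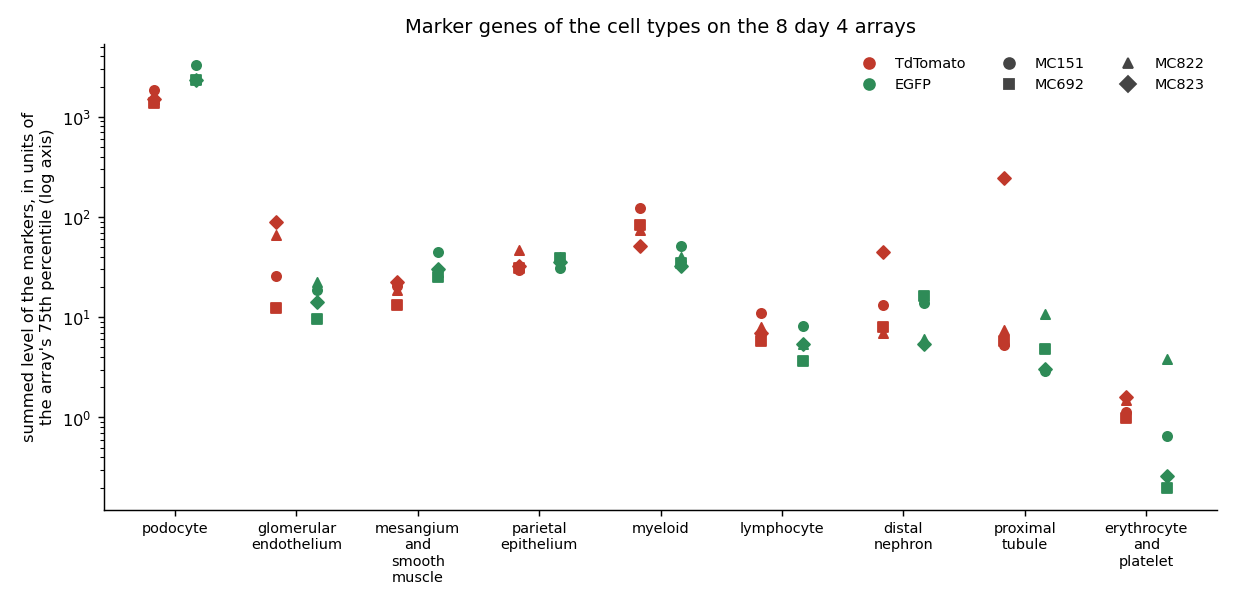
Summed level of the markers of 9 cell types on each day 4 array (y axis, in units of the array's 75th percentile, log axis), TdTomato left and EGFP right within each type, with 1 symbol per mouse. Podocyte markers are lower on every TdTomato array, and the proximal tubule sum of TdTomato MC823 stands at 246.3 while the other 7 arrays lie between 2.877 and 10.83.

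Markers of the glomerular endothelium were higher in TdTomato in 17 of 19 genes, with 1 lower (median 2.42; 14, 1 and 1.81 without MC823; 15, 1 and 0.99 with normexp). Their sum ran from 12.5 to 88.46 in TdTomato and from 9.677 to 22.7 in EGFP. Robo4, a receptor of endothelial cells, stood at 2.12, 1.80, 2.05 and 2.19 in TdTomato, against -2.60, -4.60, -1.84 and -3.01 in EGFP (5.05 ± 0.65, limma adjusted p = 3.4e-05). Pecam1 (1.87 ± 0.24) and Cdh5 (2.01 ± 0.48), the adhesion molecules that define this cell type, rose less. Cdh5 was at -3.37, -5.01, 0.43 and 0.38 in TdTomato and at -4.85, -5.87, -2.30 and -2.60 in EGFP, so mice differed more than populations. Kdr, the VEGF receptor, fell by 0.72 ± 0.10 on the log2 scale. The part of endothelial RNA in the higher vascular genes, Edn1 and Icam1 among them, was not tested.

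Myeloid markers had 10 higher and 0 lower of 18 (median 1.67, and 0.40 with normexp, with 8 higher and 1 lower), and their sum was 51.78 to 122.3 in TdTomato, against 32.77 to 51.19 in EGFP. Itgax, the integrin CD11c, was at 0.99, 0.04, 0.18 and 0.06 in TdTomato with no EGFP array well above background (at least 27.9-fold higher), and Aif1 (at least 26.8-fold) and C1qa (at least 12.2-fold) had the same pattern. With normexp their log2 differences were 2.47, 2.44 and 1.75. Defining genes of macrophages and leukocytes did not pass and were near background on most arrays: Adgre1, which encodes F4/80, was at -0.18 ± 0.25 and well above background on 1 TdTomato and 0 EGFP arrays, Lyz2 on 1 and 0, and Ptprc, which encodes CD45, on 3 and 0. Of 9 lymphocyte markers 5 rose and 2 fell (median 0.64, sums 5.815 to 11 in TdTomato and 3.643 to 8.161 in EGFP), led by Cd79b, a B cell receptor chain, at least 27.9-fold higher (a log2 difference of 2.36 with normexp). The part of leukocyte RNA in the chemokine, complement and cytokine genes above was not tested.

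Mesangial and smooth muscle markers were higher in 6 and lower in 2 of 14 (median 0.69, 0.38 without MC823 and 0.03 with normexp; sums 13.14 to 22.51 in TdTomato and 24.98 to 44.67 in EGFP). Notch3 was at 5.39 ± 0.46, and Pdgfrb, the defining receptor, at -1.11 ± 0.17. Parietal epithelial markers were higher in 3 and lower in 4 of 13 (median 0.15, -0.28 without MC823 and -0.005 without MC692; sums 29.64 to 47.35 in TdTomato and 30.93 to 39.47 in EGFP). Their leading rise was that of Scin, the actin-severing protein scinderin, at 4.59 ± 0.44.

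Tubule markers turned on 1 array. Proximal tubule genes had a median of 1.77, with 4 higher and 1 lower of 18, and without MC823 a median of -0.29 with 3 and 1. By mouse the medians were 0.14, -0.13, -1.37 and 7.61. Slc34a1, the phosphate carrier of this segment, stood at -3.40, -2.49, -2.97 and 3.13 in TdTomato, against -4.87, -3.48, -0.98 and -6.04 in EGFP, and was not called (limma adjusted p = 0.12). Hnf4a, a transcription factor of the proximal tubule, differed from that pattern: it was at 0.60, 0.36, -0.01 and 1.55 in TdTomato, against -6.03, -4.74, -3.59 and -6.52 in EGFP, higher in all 4 mice (5.84 ± 0.79, adjusted p = 4.9e-05 by limma). Distal nephron genes had 3 higher and 1 lower of 11 (median 0.66; -0.58 without MC823, 1.11 without MC151 and 1.35 without MC692; sums 7.04 to 44.53 in TdTomato and 5.352 to 16.4 in EGFP). Erythrocyte and platelet genes had 2 higher and 0 lower of 6 (median -0.13, and from -0.54 without MC823 to 0.43 without MC822; sums 0.9977 to 1.601 in TdTomato and 0.196 to 3.823 in EGFP). Over all genes 3791 were higher and 7383 lower without MC823.

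The day 4 difference was set beside that of the other days in the same fit, with the difference between days as the test. All these tests share the day 4 arrays. Against day 0 the TdTomato minus EGFP difference differed in 10036 genes (64.2%), larger in 3322 (21.3%) and smaller in 6714 (43%), and the last count was 4429 with no replicate block for the mouse. Against day 1 it differed in 7866 genes (50.4%), larger in 3159 (20.2%) and smaller in 4707 (30.1%). On their own, day 1 had 4401 genes higher (28.2%) and 5102 lower (32.7%), 60.8% in all. Day 7, with 2 TdTomato arrays, had 1169 (7.48%) and 522 (3.34%), and 6.5% of all genes were called and over 2-fold higher there. Of the 2 pairs at day 7, 1 is that of MC221, whose columns in the authors' deposited values match no scanner file. The reason was not tested, and all day 7 values carry this limit.

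The difference of Nphs1 was 0.06 at day 0, -0.12 at day 1, -1.21 at day 4 and -0.32 at day 7, and day 4 was below day 1 by 1.09 (limma adjusted p = 0.00013). Podxl had already fallen by day 1 (-1.47), and its day 4 difference was not shown to differ from that (0.42, adjusted p = 0.27 by limma). Foxc2 was lower at day 4, at -1.38, and higher at day 1, at 1.00 (limma adjusted p = 1.2e-05 for the difference between days).

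Birc5 stood at -0.03 at day 0, 4.48 at day 1, 6.66 at day 4 and 2.59 at day 7, and day 4 was above day 1 by 2.18 (limma adjusted p = 0.00016). Nusap1 was at 0.08 at day 1 and opened its gap afterwards, to 6.21 at day 4 and 3.90 at day 7. Prc1 was at 4.35 at day 4 and 0.70 at day 1, while Bub1b was at 5.37 at day 4 and 4.49 at day 1. Spc25 was less far below EGFP at day 4 than at day 1, where it was at -2.48 (adjusted p = 0.00077 by limma).

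The NF-kB list had a median of 0.85 at day 4, against 3.07 at day 1. Cxcl16 was at 6.80 at day 1, 7.36 at day 4 and 4.23 at day 7, while Icam1 was at 6.96, 6.56 and 0.43 on those days. Bcl3 was lower at day 4 than at day 1 by 2.12 (limma adjusted p = 0.00087), Nfkbia by 1.62 and Fas by 2.63. Only Il6 and Traf1, an adaptor of TNF receptors, had a larger difference at day 4 than at day 1 by the test: Il6 was at 3.74 at day 4 and -0.21 at day 1, and Traf1 at -0.35 at day 4 and -1.53 at day 1. Among interferon-stimulated genes Isg15 was at 4.24 at day 4 and 0.60 at day 1 (limma adjusted p = 1.6e-06 for the difference between days), and Smad4 was at 3.62 at day 4 and 0.50 at day 1.

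Fitted differences from day 1 were large upward for Flt3 (9.49), Spink2 (8.47), Fut2 (7.95) and Pmch (7.89). None of these 4 was well above background on an EGFP array at day 4, so their sizes and order depend on dim spots. Flt3, a receptor of blood progenitors, was at 6.29 at day 4 and -3.21 at day 1, and Pmch, a hypothalamic neuropeptide gene, at 7.88 at day 4 and -0.01 at day 1. Downward they were large for Nfam1 (-7.03), Calcb (-5.96), Plau (-5.86) and Fyb2 (-5.77), all dim at day 4. Plau, the urokinase gene, was at 0.52 ± 0.52 at day 4, where 1 TdTomato and 0 EGFP arrays were well above background, and at 6.38 at day 1. The endothelial median went on upward, at 0.50 at day 0, 2.42 at day 4 and 4.37 at day 7. The plot by day follows 9 of these genes.

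**Figure D5:**
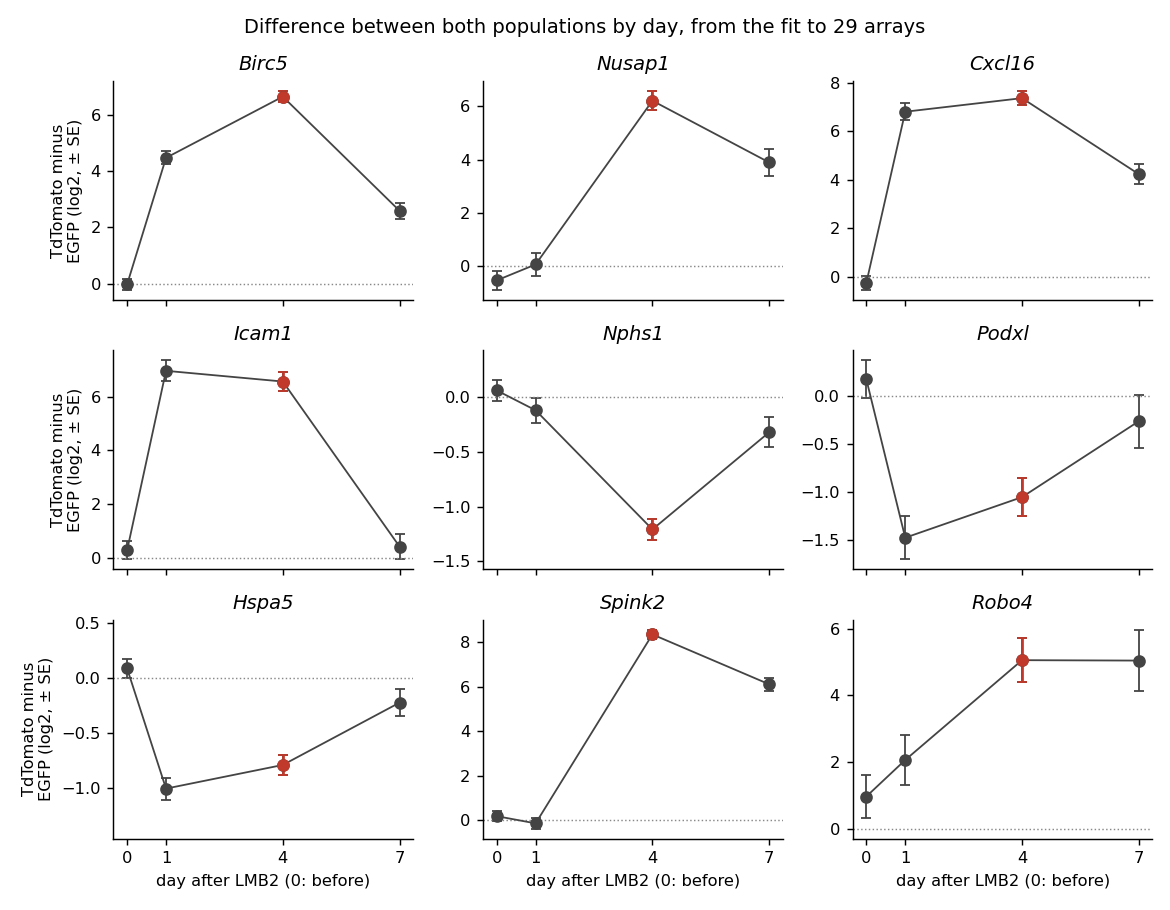
TdTomato minus EGFP difference of 9 genes (y axis, log2, bars show SE of the limma fit) at days 0, 1, 4 and 7 (x axis), with day 4 in red, from the mice that gave both populations. Icam1 and Cxcl16 are up by day 1, Nusap1 and Spink2 are up at days 4 and 7 and near 0 at day 1, and Nphs1 has its lowest point at day 4.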

How the data were processed

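RNA of sorted podocytes was labelled with Cy3 and hybridised to one-colour Agilent mouse arrays. The deposited scanner files hold, per the file headers, Feature Extraction intensity values that are already background-corrected (gProcessedSignal), and the authors' deposited value table holds log2 values of the same arrays, used here as an alternative. Feature Extraction 11.5.1.1 is named in the submitters' processing notes. From the intensity of each spot that is no control, log2 was taken and the log2 of the array's 75th percentile subtracted. Spots of a probe were averaged, probes well above background on at least 3 of 29 arrays were kept, and the brightest probe stood for a gene. Of 55681 probes 26576 had 1 gene symbol and 29105 had none, and 15622 genes were tested.

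Limma 3.58.1 in R 4.3.3 was fitted to all 29 arrays with the mouse as a block and 1 TdTomato minus EGFP coefficient per day, with Benjamini-Hochberg adjustment at 0.05. Pairing comes from the labels, since both arrays carry 1 mouse code. Deviations of same-mouse arrays correlated at 0.041 to 0.636 over all days. The day 4 mice were at 0.57 (MC151), 0.344 (MC692), 0.469 (MC822) and 0.041 (MC823). At day 4 each mouse lay on its own slide, so the mouse block is also the slide block. The labels do not say how many sorts each array stands for, and the spread behind each p-value is pooled over the mice of all days.

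The members and gene lists were chosen with earlier results of these data known. Genes were named from the lists and from the largest differences past the threshold. A bound written "at least" sets the brighter group's mean against, per array of the dim group, the lowest signal well above background or the probe's own, whichever was higher. Alternatives changed the block, the arrays in the fit, the background correction, the normalization, the filter, the probe rule and the values, and left out each mouse. Correction with normexp used the median signal with an offset and was chosen after seeing the data. It had been planned on the mean signal, which the scanner files do not hold. In the authors' deposited values, the 2 columns of the day 7 arrays of MC221 matched no scanner file. The EGFP column correlated at 0.9865 with its own file and at 0.9932 with another, the TdTomato column at 0.9945 and 0.9950. Both columns stayed in the fit of the authors' values. Without the day 7 arrays of MC221, the main fit gave 3953 genes higher and 7446 lower at day 4. The procedure was tested on simulated data, in which a small set of genes changed equally in both directions. Differences here were many and lopsided, so that test does not cover how scaling acts on them. Some genes are not reported here.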

Additional observations from a re-analysis of the deposited data

Results flagged for a closer look

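In 183 named genes the 4 paired differences were searched for a mouse that stood away from the other 3, and 9 were found. Chance gives about 1 in 20 among independent groups, and this count is near that rate. The named genes share the same 4 mice and were partly chosen by size, so the count cannot say whether chance made it. MC822 differed in Cd3d, a T cell receptor chain (0.72), in Dhcr7, an enzyme of cholesterol synthesis (-0.80), in Eif4ebp1, a repressor of translation (-0.86), and in Tk1 (4.50). MC823 differed in H2-Q7, an MHC class I gene (-1.07), in the interferon-stimulated gene Ifi44 (4.18), in Maff (3.25) and in Smad4 (3.07). MC692 differed in Hmox1 (2.60). Among 40 medians (the lists and all genes) 2 were found, near the same rate and with the same limit. MC823 stood away in the proximal tubule markers (7.60) and in the erythrocyte and platelet markers (1.99).

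The TdTomato minus EGFP difference at day 4 differed from that at day 0 in 10036 genes and from that at day 1 in 7866 genes by limma's test of the difference. Sizes and order of dim genes depend on the floor of their spots. Against day 0 wide ones were Tmem151b (8.58), Kcnmb3 (8.53), Tmprss9 (8.49) and Prl7b1 (8.42) upward, and Crct1 (-2.83), Grik2 (-2.77), Olfr510 (-2.63) and Nags (-2.53) downward. Against day 1 they were Flt3 (9.49), Spink2 (8.47), Fut2 (7.95) and Pmch (7.89) upward, and Nfam1 (-7.03), Calcb (-5.96), Plau (-5.86) and Fyb2 (-5.77) downward.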

How the results depend on the processing

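With no replicate block for the mouse, the genes whose difference was smaller at day 4 than at day 0 numbered 4429, against 6714 with it, and at day 4 itself 3282 genes were higher and 6031 lower; the cause was not tested. Past 2-fold, normexp gave 1401 higher and 1093 lower, against 2788 and 2159. The differences between days past 2-fold fell likewise with normexp, to 1338 larger and 943 smaller against day 0 (2523 and 2322) and to 917 and 1758 against day 1 (2198 and 2267). Among lists, normexp gave medians of 0.006 for mitosis, 0.085 for complement, 0.161 for interferon-stimulated genes, 0.158 for TGF-beta and -0.334 for matrix, and quantile normalization gave -0.454 for heat shock, -0.264 for oxidative stress, -0.25 for the respiratory chain and -0.298 for DNA replication. Normexp adds 50 to every signal, which by construction shrinks the folds of dim genes. Leaving out each mouse gave 3707 to 3836 genes higher and 7045 to 7383 lower at day 4, 3066 to 3255 larger and 6185 to 6666 smaller against day 0, and 2607 to 3397 larger and 4264 to 4585 smaller against day 1. Normexp gave 3355 higher and 8308 lower, quantile normalization 4070 and 7549, and the authors' values 3970 and 7660. The difference of Fyb2, dim at day 4, reversed to -0.121 with normexp, -0.14 with quantile normalization and -0.371 without MC692 (up to 0.714 when another mouse was left out), and that of Plau to -0.196 without MC823 (up to 1.07); neither was called. Centring on the median, added after seeing the data, gave 4186 higher and 7054 lower. Genes near background have only a bound, and 4 mice limit the precision.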
